A study of Mus musculus with 6 samples.

Results

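A set of 10 genes of the desmosome and of other epithelial cell contacts were followed in stromal cells sorted from mouse skin. They were Dsp, Dsc3, Dsg1a, Dsg3, Pkp1, Pkp3, Jup, Perp, Cdh1 and Epcam, chosen by name as a list of 10 mouse genes out of 23044 genes present on both array designs used. The authors' gene table holds rows for 9 of the 10, and Epcam was found through the RefSeq accession of its probe. The mice carried a transgene in which green fluorescent protein (GFP) is driven by the smooth muscle actin (SMA) promoter, and all cells analysed were sorted as negative for the leukocyte marker CD45 and the endothelial marker CD31. The skin group was dermal cells of low reporter signal, labelled skin SMA+ and described as fibroblast-like cells. The wound group was cells of high reporter signal taken 7 days after injury, labelled wound SMA+++ and described as myofibroblasts, the contractile fibroblasts of healing tissue. Each group had 3 arrays. Replicates 1 and 2 were measured on design 026655 and replicate 3, a name given here, on design 028005. Strain and age are not in the labels, nor is it stated whether the arrays of a group hold different animals. Each p-value thus reflects the spread that group and array design leave among these arrays, and that spread may be technical only.

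Desmosomes are spot-like contacts that join the keratin filaments of neighbouring epithelial cells. Desmogleins and desmocollins are the cadherins that bridge the gap between the cells, plakoglobin (Jup) and the plakophilins bind their tails in the plaque, and desmoplakin (Dsp) ties the plaque to keratin. In skin these genes are known for the strength they give the epidermis, and desmoglein 1 and desmocollin 1 are known as cadherins of its upper layers while desmoglein 3 is strongest in the lower ones. E-cadherin (Cdh1) forms the adherens junctions of epithelia, and Epcam is a homophilic adhesion protein of simple epithelia, follicle cells and Langerhans cells. Keratinocytes carry most of these genes in skin. Of the sorting gates described, only that of the reporter would leave them out, though the skin group was also described as dermal cells.

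The comparison asked whether RNA of these epithelial genes was present in the sorted populations and whether it differed between low-reporter skin and high-reporter wound cells. Of the 10 genes, 8 were lower in wound cells, 0 were higher, 1 (Pkp3) did not pass the threshold and 1 (Dsg3) was too dim to test. The threshold was a Benjamini-Hochberg adjusted p under 0.05 from limma's moderated linear model over 16750 tested genes, with the array design as a term. Of those tested genes 34.1% were called, 15.6% as lower in wound cells. The median log2 difference of the 9 tested members was -4.22, against 0.04 for all tested genes. In all, 5 members were called and at least 8-fold lower, which was so for 2.07% of tested genes. The 9 tested members were well above background on all 3 skin arrays, and only Perp and Pkp3 were so on all 3 wound arrays, so these 9 entered the test through the group in which they were brighter or through both. Reporter level and injury go together in this design and cannot be told apart. In such bulk samples, fewer cells of a type and less RNA per cell cannot be told apart either.

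Values are given below as the scaled signal, which is the array's processed signal for the brightest probe of the gene as a percentage of that array's 75th percentile. Scaled signals of different genes come from different probes and are not set against each other. The 3 values of a group are listed in the order of replicates 1, 2 and 3. Log2 differences are wound minus skin, with the standard error (SE) of the model.

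**Figure D1:**
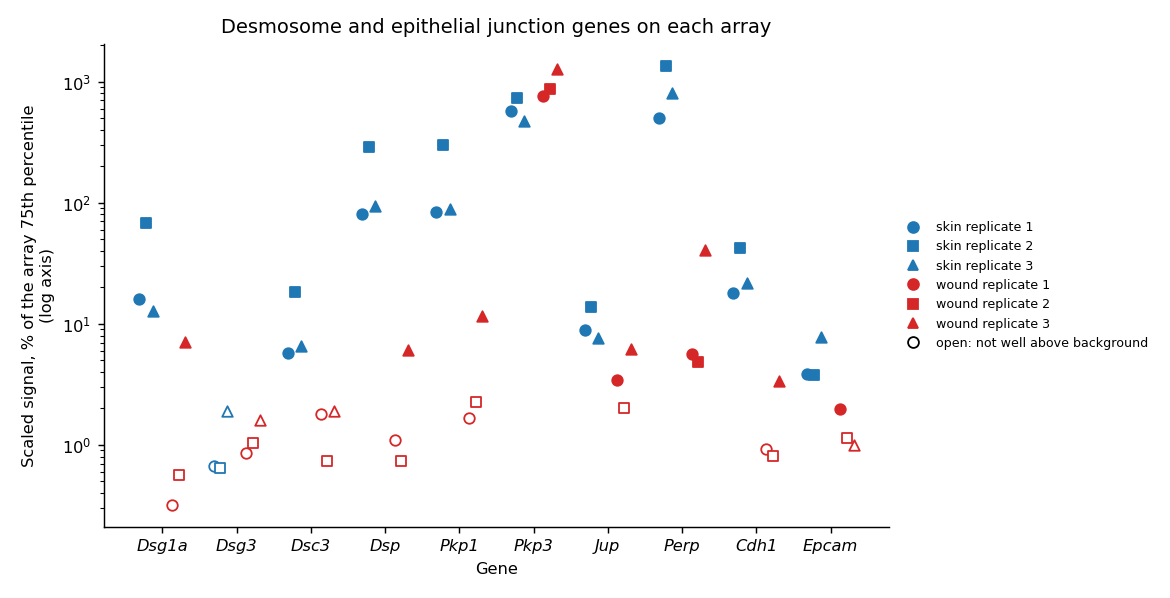
Scaled signal (percent of the array's 75th percentile, log axis) of the 10 genes on each of the 3 skin (blue) and 3 wound (red) arrays, with open symbols where the probe was not well above background. For 8 genes every skin array lies above every wound array, whereas Pkp3 is higher on the wound arrays and Dsg3 is not well above background on any.

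RefSeq promoter sequence (assembly GRCm38.p6) was at hand for 3 of the 10 genes, Dsp, Epcam and Jup. All 3 were lower in wound cells, and the 250 bases before each start are shown so that the letters of their proximal promoters can be compared. Capitals mark the GC box GGGCGG and the E-box CACCTG, on either strand. The Dsp window lies at chr13:38151044-38151293 on the plus strand, the Epcam window at chr17:87635729-87635978 on the plus strand and the Jup window at chr11:100397791-100398040 on the minus strand.
Dsp: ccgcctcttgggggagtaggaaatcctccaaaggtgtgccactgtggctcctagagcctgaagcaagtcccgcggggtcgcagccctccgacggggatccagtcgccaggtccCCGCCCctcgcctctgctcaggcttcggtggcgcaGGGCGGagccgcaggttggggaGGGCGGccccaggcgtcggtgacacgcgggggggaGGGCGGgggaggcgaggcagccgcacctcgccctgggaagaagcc
Epcam: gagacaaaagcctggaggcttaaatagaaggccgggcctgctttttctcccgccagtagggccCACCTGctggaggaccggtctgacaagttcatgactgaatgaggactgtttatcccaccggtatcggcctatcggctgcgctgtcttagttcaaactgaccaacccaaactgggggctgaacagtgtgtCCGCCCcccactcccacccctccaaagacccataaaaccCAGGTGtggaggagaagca
Jup: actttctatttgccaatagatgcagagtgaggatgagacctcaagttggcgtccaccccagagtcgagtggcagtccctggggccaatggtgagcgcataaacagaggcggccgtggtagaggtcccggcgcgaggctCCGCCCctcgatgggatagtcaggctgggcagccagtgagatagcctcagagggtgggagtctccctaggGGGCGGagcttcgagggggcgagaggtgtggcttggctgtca
The Dsp window is the richest in G and C, at 72.4%, and holds 22 CpG pairs, against medians of 52.4% and 6 over 32851 promoter windows of the same length. The Jup window has 62.0% and 13 pairs, the Epcam window 56.4% and 8. GC boxes, the letters bound by Sp and KLF factors, occur 4 times in the Dsp window, 2 times in that of Jup and 1 time in that of Epcam, and 32.7% of all windows hold at least 1. The E-box CACCTG, which Snail and Zeb factors bind, occurs 2 times in the Epcam window, 187 and 19 bases before the start, and not in the other windows. It is found in 17.2% of all windows, and the looser E-box CANNTG, which includes it, in 66.2%. Its only matches in the 3 windows are those same sites of Epcam. Neither the grainyhead-like motif AACCGGTT nor the TATA box TATAAA was found in the 3 windows, and they occur in 0.116% and 12.4% of all windows. These are matches of letters only.

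Among the desmosomal cadherins, Dsg1a and Dsc3 fell and Dsg3 could not be assessed. Dsg1a, a desmoglein 1 gene of the suprabasal epidermis, had scaled signals of 16.1%, 68.0% and 12.7% in skin, against 0.320%, 0.559% and 7.08% in wound cells. The groups did not overlap, but skin replicate 3 and wound replicate 3, both on design 028005, lay close together. The fall was 22.3-fold (log2 -4.48, SE 1.16, adjusted p = 0.0275), with 1 of 3 wound arrays well above background. The log2 difference was -6.29 on design 026655 and -0.85 on design 028005, the widest gap between the designs of any member. Leaving out skin replicate 1, skin replicate 2, wound replicate 1 or wound replicate 2 lost the call (adjusted p = 0.0657, 0.0622, 0.0958 and 0.0891). Normexp background correction, which adds an offset of 50 and draws dim signals together, gave a log2 of -1.68. Dsg1a has close relatives in the mouse, Dsg1b and Dsg1c, and a probe may read more than 1 of them. A long non-coding RNA gene also overlaps it in the RefSeq annotation.

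Dsc3, a desmocollin of the lower epidermal layers, was well above background on every skin array and on no wound array. Its scaled signals were 5.70%, 18.3% and 6.59% in skin, against 1.81%, 0.734% and 1.91% in wound cells. By the brightest probe of each design it was thus at least 3.37-fold lower in wound cells (adjusted p = 0.0137). This bound sets the skin mean against, on each wound array, the lowest signal counted as detected or the probe's own signal, whichever was higher. The brightest probe was not the same on the 2 designs. The probe brightest on design 026655, read on all arrays, gave a log2 difference of -3.29, and the other probe of the gene -1.88. Under normexp the log2 value was -0.70, a smaller fall than the bound's log2 size of 1.75. The bound thus holds for this choice of probes and the main processing only, and none was computed for either probe alone. For Dsg3, a desmoglein of basal keratinocytes, the brightest probe was well above background on 0 of 6 arrays. Of its 3 probes, 1 was detected, on skin replicate 3 alone, and no difference is given.

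The plaque genes split. Dsp, the desmoplakin that links the plaque to keratin filaments, had scaled signals of 80.0%, 290.1% and 94.7% in skin, against 1.10%, 0.738% and 6.12% in wound cells. All skin arrays stood far above all wound arrays, of which only that of replicate 3 was well above background. The fall was 76.1-fold (log2 -6.25, SE 0.80, adjusted p = 0.00186), a size that rests in part on the 2 wound arrays where the probe was not well above background. A second, dimmer Dsp probe was detected on 1 of 6 arrays and gave -1.40, so the mean of both probes was -3.83, and a limma fit of the authors' deposited table gave -4.44. Normexp gave -3.48.

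Pkp1, a plakophilin of the suprabasal epidermis, followed Dsp closely. It stood at 84.6%, 298.7% and 88.6% in skin and at 1.66%, 2.24% and 11.5% in wound cells, with 1 of 3 wound arrays well above background. The groups were far apart (37.4-fold lower, log2 -5.22, SE 0.79, adjusted p = 0.00361), and normexp gave -3.14. Jup, or plakoglobin, which desmosomes and adherens junctions share, had the smallest difference of the called genes over all 6 arrays, though on design 026655 alone that of Epcam was smaller. Its scaled signals were 8.89%, 13.7% and 7.68% in skin, against 3.42%, 2.02% and 6.16% in wound cells, without overlap but with neighbouring values on design 028005. It fell 2.80-fold (log2 -1.49, SE 0.42, adjusted p = 0.0380), with 2 of 3 wound arrays well above background. The call was lost without skin replicate 1, skin replicate 2, wound replicate 1 or wound replicate 2 (adjusted p = 0.0930, 0.106, 0.0973 and 0.0921), and the log2 difference was -2.07 on design 026655 and -0.32 on 028005. It was also lost with the replicate number as a block (adjusted p = 0.0666), under quantile normalization (0.0504), with no filter (0.0870) and with no array design term (0.129). Normexp gave -0.54 with the call kept.

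Pkp3, a plakophilin found in most epithelia, did not move with the others. Its probe read 567.3%, 736.9% and 470.6% in skin and 765.2%, 867.1% and 1275% in wound cells. It was well above background on all 6 arrays and every wound array was above every skin array. The log2 difference of 0.70 (SE 0.27) did not pass the threshold (adjusted p = 0.0910), although it did with the array design as a random block (adjusted p = 0.0412). It was 0.33 on design 026655 and 1.44 on 028005. Pkp3 was read by 1 probe, whose specificity was not tested.

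Perp, a membrane protein that desmosomes need in stratified epithelia and a target of p53, fell strongly too. It stood at 499.5%, 1349% and 801.1% in skin and at 5.66%, 4.85% and 40.4% in wound cells, well above background on all 6 arrays. The fall of 78.7-fold (log2 -6.30, SE 0.67, adjusted p = 0.000892) was thus measured on both sides and held with each array left out, with log2 values from -7.29 to -5.60. Normexp gave -5.07. Of 10 other p53 target genes 1 fell, 2 rose and 7 did not pass the threshold, with a median of 0.29. Cdkn1a, the cell cycle inhibitor p21, was the member that fell (log2 -1.37, SE 0.16, adjusted p = 0.00131), while Mdm2, which degrades p53, rose (log2 0.91, SE 0.14, adjusted p = 0.00435), as did Zmat3 (log2 0.62, SE 0.15, adjusted p = 0.0217).

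Cdh1, the E-cadherin of adherens junctions, stood at 17.9%, 42.2% and 21.6% in skin and at 0.917%, 0.817% and 3.37% in wound cells, where 1 array was well above background. The groups lay far apart, with wound replicate 3 again the nearest to skin. The fall was 18.6-fold (log2 -4.22, SE 0.54, adjusted p = 0.00183), or -1.58 under normexp. Epcam was dim throughout. It read 3.82%, 3.75% and 7.71% in skin and 1.99%, 1.14% and 1.00% in wound cells, where 1 array was well above background, and it fell 3.65-fold (log2 -1.87, SE 0.38, adjusted p = 0.0118). Its skin signals did not share the peak of replicate 2 seen for the other called genes, and its difference was smaller on design 026655 (log2 -1.33) than on 028005 (-2.94). Under normexp its value shrank to -0.29 and the call was lost (adjusted p = 0.234). Langerhans cells, which carry Epcam, are CD45-positive, and the cells were sorted as CD45-negative. Ptprc, the gene of CD45, was well above background on 3 of 3 skin arrays and 1 of 3 wound arrays. Its scaled signals nevertheless overlapped, at 2.47%, 2.54% and 4.63% in skin and 2.23%, 2.53% and 3.36% in wound cells. Ptprc was thus not called in either direction (adjusted p = 0.366 in the limma model, with a log2 value of -0.21 and SE 0.16). Of the Langerhans cell markers, Cd207 (langerin) was detected on 2 of 3 skin arrays and 1 of 3 wound arrays and was not tested. H2-Ab1 and Cd74, genes of antigen presentation, fell (log2 -1.29 and -0.87, adjusted p = 0.00344 and 0.0478), while the integrin Itgax and the secreted Mfge8 rose (log2 5.62 and 1.21, adjusted p = 8.8e-05 and 0.00424). Itgax was well above background on 1 of 3 skin arrays, so its size rests in part on undetected signals. The part of Langerhans cells in the Epcam values was not tested.

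**Figure D2:**
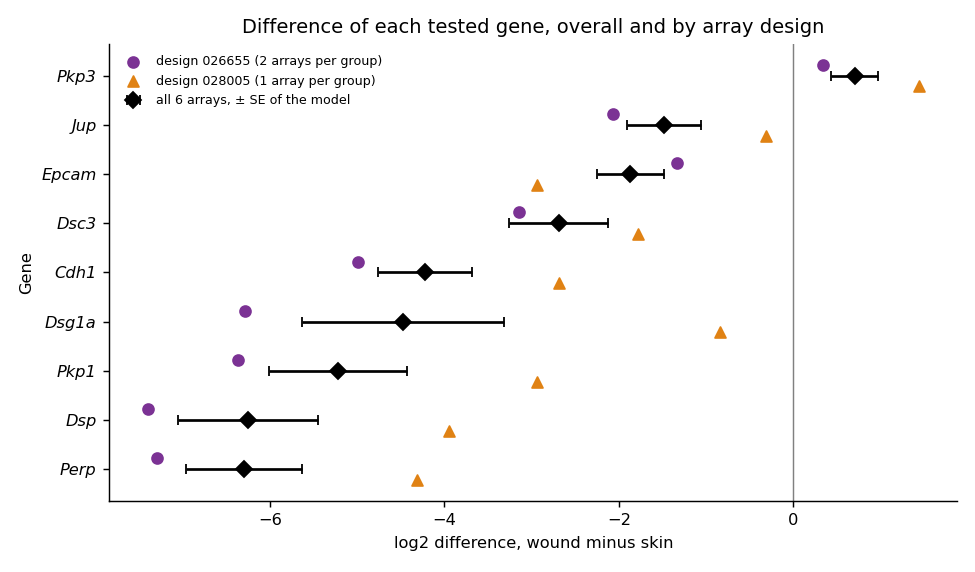
Log2 difference, wound minus skin, of the 9 tested genes from all 6 arrays (black diamonds, bars ± SE of the model) and within design 026655 (purple circles, 2 arrays per group) and design 028005 (orange triangles, 1 array per group). Every value of the 8 called genes lies below 0, and all but that of Epcam are nearer to 0 on design 028005. For Dsc3 the designs are read by different probes.

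Among the called members, most had a smaller fall on design 028005, though no difference between the designs was called, and the direction was the same on both. Over the 8 called genes the median log2 difference was -5.64 on design 026655 and -2.81 on design 028005, against 0.07 and 0.02 for all tested genes. Of the 8 called genes, 7 had the smaller difference on design 028005. For Dsc3 this set a different probe on each design side by side. Its probe brightest on design 026655 gave -3.15 there and -3.57 on design 028005, and its other probe -1.93 and -1.78. An interaction term of design and group, added after these values were seen, gave adjusted p-values from 0.422 (Dsg1a) to 0.896 (Dsc3) for the members, and limma called 0 of 16672 genes with it, with 1192 at an unadjusted p under 0.05. An unadjusted p under 0.05 was found for 8 of the 9 tested members, all but Dsc3, against 7.15% of all genes, and design 028005 has 1 array per group. The term was chosen from these same values and most members had similar profiles, so the count is a description only. Wound replicate 3 read higher than both other wound arrays for 7 of the 8 genes, and it is the only wound array of its design, so array and design cannot be told apart there. The groups did not overlap, skin above wound, for these 8 genes, which was so for 8.46% of the 16672 tested genes with a value on every array.

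Within design 026655, 7 of the 8 called members were higher on skin replicate 2 than on skin replicate 1, a comparison of single arrays with no test. Skin replicate 2 read 4.22 times replicate 1 for Dsg1a, 3.62 times for Dsp, 3.53 times for Pkp1, 3.22 times for Dsc3, 2.70 times for Perp, 2.35 times for Cdh1 and 1.54 times for Jup, but 0.981 times for Epcam. The same ratio had a median of 1.03 over fibroblast markers. Of the 18 keratinocyte markers, none of them a member, 14 read higher on skin replicate 2 and 4 lower. Among the higher were Krt77, Krt1 and Krt10, keratins of the suprabasal layers, at 5.39, 4.58 and 3.26 times. The 4 lower ones were Krt14, Krt17, Krt5 and Krt15, keratins of the basal layer and the hair follicle, at 0.426, 0.480, 0.542 and 0.697 times. The markers did not all divide by layer, since Trp63 of basal cells read 1.13 times and Lor, or loricrin of the uppermost layers, 1.19 times as high. Other desmosome genes did not all share the direction either, with 0.886 for Ppl and 0.601 for Pkp2. These markers were picked out after their values were seen.

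**Figure D3:**
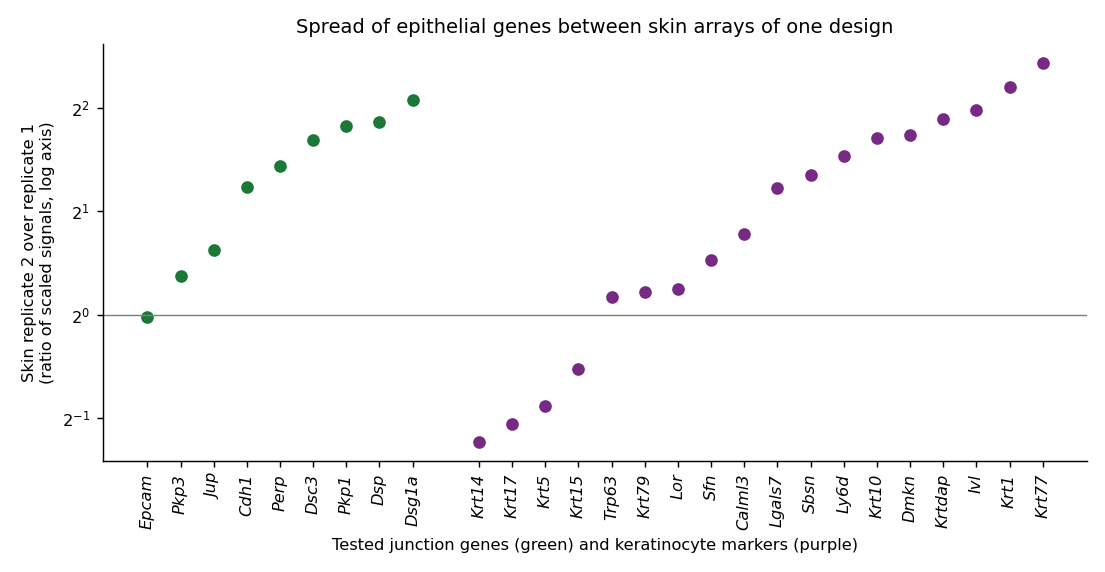
Ratio of scaled signals, skin replicate 2 over skin replicate 1 (log axis), both on design 026655, for the 9 tested junction genes (green) and 18 keratinocyte markers (purple). Dsg1a, Dsp and Pkp1 lie beside Krt10 and Krt1 above 3, while Krt14, Krt17, Krt5 and Krt15 lie below 1.

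Keratinocyte markers fell with the members. Of 18 markers 14 were lower in wound cells, 0 were higher and 4 did not pass the threshold, with a median log2 difference of -4.13, or -4.08 with 2 genes at their bounds. Their summed scaled signal ranged from 2757% to 6245% on the skin arrays and from 729.9% to 1652% on the wound arrays, without overlap. Single bright genes weigh heavily in these sums. Trp63, which was not called, gave 341.4%, 522.6% and 792.6% on the wound arrays, and Krt10 gave 2670% on skin replicate 2. The sums are thus no measure of the keratinocyte RNA left in wound cells. Krtdap, a secreted protein of differentiating keratinocytes, fell 81.9-fold (log2 -6.36, SE 0.94, adjusted p = 0.00338), and Krt17 and Krt15 fell 67.8-fold and 58.4-fold (adjusted p = 0.000303 and 0.000300). Krtdap and Krt17 were well above background on 1 of 3 wound arrays and Krt15 on 2, so these sizes rest in part on undetected signals. Krt1 was at least 22.8-fold lower and Krt77 at least 16.8-fold lower, as neither was well above background on a wound array. Krt5, a keratin of basal keratinocytes that pairs with Krt14, remained well above background on all 6 arrays, with 218.7%, 118.5% and 1194% in skin and 7.72%, 6.88% and 71.8% in wound cells. Trp63, the p63 transcription factor of basal keratinocytes, missed the threshold (adjusted p = 0.374, log2 -0.27, SE 0.22). The part of keratinocyte RNA in the fall of the members was not tested.

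Other desmosome genes, 10 in number with 7 tested, gave 3 lower, 1 higher and 3 not called, with a median of -0.27. Ppl, or periplakin, a plakin of the cornified envelope and of desmosomal plaques, fell 34.4-fold (log2 -5.10, SE 0.18, adjusted p = 5.43e-05). Its skin signals of 526.1%, 466.3% and 697.7% lacked the peak of replicate 2, and its wound signals were 11.8%, 13.5% and 26.5%. Dsg1c fell 4.41-fold (log2 -2.14, SE 0.62, adjusted p = 0.0394). Pkp2, the plakophilin best known from the heart and simple epithelia, moved the other way. It read 2.22%, 1.33% and 4.79% in skin and 44.2%, 54.3% and 88.5% in wound cells, a rise of 24.6-fold (log2 4.62, SE 0.26, adjusted p = 0.000118). Among the plakophilins, Pkp1 thus fell, Pkp2 rose and Pkp3 was not called in the same arrays, and Pkp4, named after its value was seen, was not called either (adjusted p = 0.451, log2 -0.20).

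Adherens junction genes, without Cdh1, gave 5 of 12 tested higher and 2 lower, with a median of 0.46, where 18.5% of all tested genes were called higher. Cdh2, the N-cadherin of mesenchymal cells, read 24.4%, 18.3% and 91.2% in skin and 512.4%, 684.5% and 935.1% in wound cells, a rise of 20.0-fold (log2 4.32, SE 0.33, adjusted p = 0.000297). Cdh3, the P-cadherin of basal and follicle keratinocytes, rose 7.30-fold (log2 2.87, SE 0.48, adjusted p = 0.00561), although skin replicate 3 lay above wound replicate 1. Cdh1 thus differed in direction from both of these classical cadherins. The catenins that carry cadherin tails did not pass the threshold, with log2 differences of -0.14 for Ctnna1, -0.18 for Ctnnb1 and 0.37 for Ctnnd1, chosen after their values were seen. Ctnnal1, a relative of alpha-catenin, and Afdn, the nectin-binding afadin, fell (log2 -1.44 and -0.94, adjusted p = 0.000944 and 0.0380).

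Tight junction genes, 15 of 18 tested, gave 6 lower and 1 higher, with a median of -0.73, or -0.66 with genes at their bounds. Cldn1, the main claudin of the epidermal barrier, was at least 3.50-fold lower (adjusted p = 0.00113), and Cgn, the junction protein cingulin, fell 5.09-fold (adjusted p = 0.00486). Cgn was well above background on 1 of 3 wound arrays, so its size rests in part on undetected signals. Gap junction connexins gave 3 of 6 lower and 1 higher. Gjb6 was at least 3.87-fold lower (adjusted p = 0.00739), and Gjb2, its usual partner in skin, fell 13.2-fold (adjusted p = 0.000175), whereas Gjc1, a vascular connexin, rose (log2 1.42, adjusted p = 0.00163). Of 9 hemidesmosome genes, which fix basal keratinocytes to the basement membrane, 2 fell and 4 rose, with a median of 0.24. Itgb4, an integrin chain of hemidesmosomes, fell 5.56-fold and Col17a1 2.51-fold (adjusted p = 0.000134 and 0.0118), while the tetraspanin Cd151 rose (log2 0.84, adjusted p = 0.0174).

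**Figure D4:**
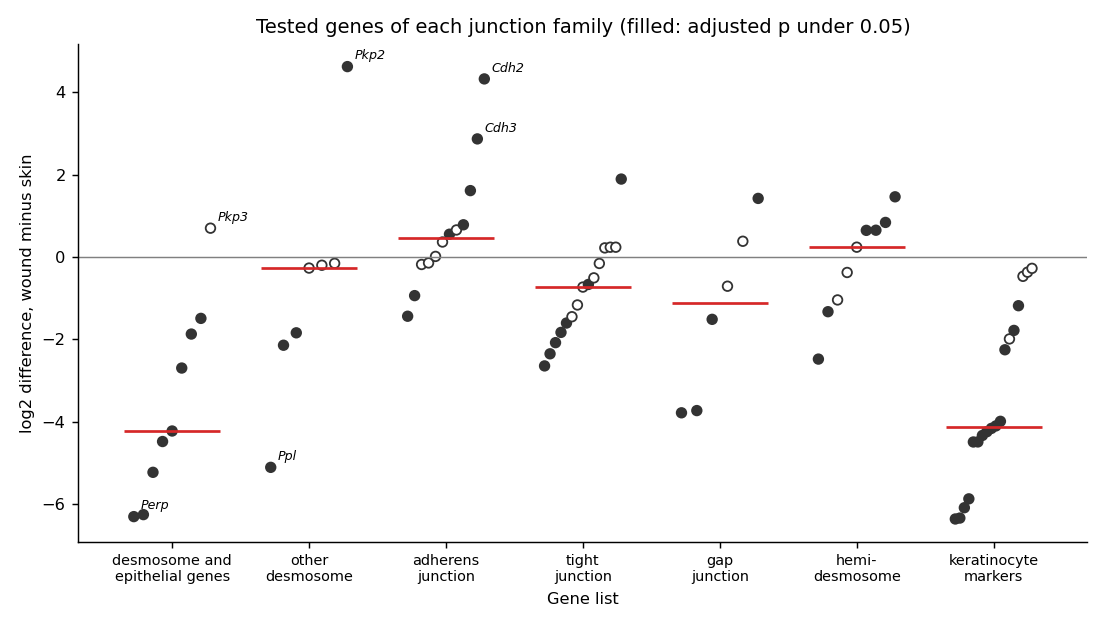
Log2 difference, wound minus skin, of each tested gene in 7 lists, filled where the adjusted p was under 0.05, with the list median as a red line. The medians are -4.22 for the 9 tested desmosome and epithelial genes and -4.13 for the keratinocyte markers, and between -1.11 and 0.46 for the other lists, where Pkp2, Cdh2 and Cdh3 stand among the highest.

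Transcription factors of epithelia fell in part, with 5 of 13 tested lower, 0 higher and a median of -0.85. Ovol1 and Grhl3, factors of differentiating epidermis, fell 30.0-fold and 23.5-fold (log2 -4.91 and -4.55, SE 0.80 and 0.88, adjusted p = 0.00500 and 0.00955). Each was well above background on 1 of 3 wound arrays, so these sizes rest in part on undetected signals. Both genes shared the skin pattern of Dsp, with skin replicate 2 at 3.44 and 3.45 times replicate 1. Factors known to repress Cdh1 did not move as a group. Snai2 and Zeb1 rose (log2 0.74 and 0.65, adjusted p = 0.0132 and 0.0175), Twist1, Zeb2 and Twist2 fell (log2 -1.77, -0.67 and -0.59, adjusted p = 0.000473, 0.0363 and 0.0209), and Snai1 was not called (adjusted p = 0.178, log2 -0.32).

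Tested genes outside every list and with a symbol were ranked by how alike their profile was to the mean of the 9 tested members. Genes of the lists, keratinocyte markers among them, were thus not ranked. Profiles were taken over 6 arrays and centred within each design. The most alike were Bspry, Fzd7, Ppil4, Atm and Mblac2, with Pearson correlations from 0.998 to 0.999. The 6 points share 2 groups and 2 designs, and the values are descriptions only. Bspry was lower in wound cells (adjusted p = 0.00663), with no size given since it was well above background on no wound array. Atm and Mblac2 fell (log2 -0.65 and -1.14, adjusted p = 0.0282 and 0.0104), and Fzd7 and Ppil4 were not called (log2 -0.45 and -0.29). Among the members, the correlation with this mean was over 0.95 for Dsp, Cdh1, Pkp1, Perp, Dsc3, Dsg1a and Jup, 0.75 for Epcam and -0.52 for Pkp3. These members are part of that mean.

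Markers of the labelled cell types were present in both groups. The 9 fibroblast markers were well above background on all 6 arrays, with 2 lower (Pdgfra and Fbln1), 1 higher (Mfap5) and a median of 0.02. Markers of mural cells, the contractile cells of vessel walls that also express SMA, rose for 6 of 8 genes, led by Higd1b and Rgs5, with a median of 3.27. Of 6 tested leukocyte markers 0 passed the threshold, and of 7 tested endothelial markers 3 rose. Langerhans cell markers gave 2 lower and 2 higher of 6, and melanocyte markers 2 lower of 4. Schwann cell markers gave 3 lower and 1 higher of 6, and sebaceous and sweat gland markers 2 lower and 1 higher of 8. Their part in the members' differences was not tested. Between 64.4% and 72.6% of the spots of an array were well above background, no array had saturated spots, and correlations across genes lay between 0.970 and 0.989 within groups and between 0.901 and 0.923 across groups.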

How the data were processed

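The 6 one-colour Agilent arrays were extracted by the authors with Feature Extraction 10.7.3.1, and the array designs name build mm9, per the file headers. Each deposited scanner file gives a processed intensity per spot, on a linear scale, background-subtracted and detrended but not scaled to other arrays. The authors' table of gene values was made with GeneSpring 14.5, per the series' design text, which names a human array beside a whole-genome one, while all samples are labelled mouse. The deposited table's scale is unstated and was taken as log2. Its differences between arrays matched log2 differences of the scanner values, averaged over all probes of a gene. Slopes were 1.00, 1.00 and 0.976 for replicates 1, 2 and 3, over 16556 genes. The medians of its columns were -0.21, -0.25 and -0.25 (skin) and -0.28, -0.27 and -0.23 (wound), its genes are centred within design 028005, and its rule for combining probes stays unknown.

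Probes were named through the authors' table and otherwise by RefSeq accession (GRCm38.p6, names only), which gave 30621 of 39429 probes on design 026655 and 30647 of 55680 on design 028005 a symbol. Of 19267 identifiers in the table, 18040 were found. Control and outlier spots were left out, spots of a probe averaged, and the log2 processed signal set relative to the array's 75th percentile. The brightest probe of a gene per design was used. A gene was tested if its probe was detected, that is well above background, on every array of 1 group or both. Wound was tested against skin with limma 3.58.1 (R 4.3.3), lmFit and eBayes, with array design, which is also slide and scan, in the model, and Benjamini-Hochberg adjustment. The SE has 3 residual degrees of freedom and 6.25 after moderation. The fit was tested on simulated data. Where no array of a group detected a gene, its fold is a bound. Precision is limited by the number of arrays.

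The members and gene lists were chosen with earlier results of these data known. All members were named, and of each list the 2 called genes with the largest difference in each direction (4 for keratinocyte markers), along with Cdh2, Cdh3, Trp63 and the 6 repressors of Cdh1. Other genes named were chosen after their values were seen. Some genes that this rule names are not reported here. Planned normexp used the median signals, since the files hold no mean signal. Tables and figures were made with Python 3.11.15, pandas 2.3.3 and matplotlib 3.10.9.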

Additional observations from a re-analysis of the deposited data

How the results depend on the processing

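Each of the 9 tested members kept its direction under every alternative run in which it could be fitted. The count of lower members was 6 to 8 with each array left out, 1 of 2 tested when genes had to be detected on all 6 arrays, and 4 at an adjusted p under 0.01, where Dsc3 (adjusted p = 0.0137, log2 -2.69), Dsg1a (0.0275, -4.48), Jup (0.0380, -1.49) and Epcam (0.0118, -1.87) dropped out. The value of Dsc3 is fitted against undetected wound signals and is no measured size. The higher count was 0 with each array left out and 1 with the design as a random block (Pkp3, 0.70). Jup was not called under quantile normalization (-1.47), and with no filter, no array design term or the replicate block (-1.49 each). Dsg1a was not called with no filter (-4.48) and Epcam not under normexp (-0.29). On design 028005 alone, 1 array per group, values were -3.95 for Dsp, -0.85 for Dsg1a, -2.94 for Pkp1, 1.44 for Pkp3, -0.32 for Jup, -4.31 for Perp, -2.68 for Cdh1 and -2.94 for Epcam. The cause was not tested, except that fewer genes pass a stricter filter or threshold.

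With each array left out, log2 values ranged from -7.40 to -5.39 for Dsp, -3.15 to -2.08 for Dsc3, -6.29 to -3.36 for Dsg1a, -6.36 to -4.38 for Pkp1, 0.33 to 0.91 for Pkp3, -2.07 to -1.10 for Jup, -7.29 to -5.60 for Perp, -4.99 to -3.65 for Cdh1 and -2.25 to -1.33 for Epcam. Leaving out an array of design 028005 leaves only design 026655 to inform the difference. Over all genes 5704 were called, 3762 to 5030 with each array left out, 1763 with no array design term and 3197 at an adjusted p under 0.01. Over the other lists 50 genes were lower and 30 higher, 40 to 45 and 22 to 26 with each array left out, and 32 and 14 with no array design term. Of 969 values recomputed for single lists, 118 moved beyond their spread or by over 1.5 times and 851 did not. The shared numbers 1 and 2 exist on design 026655 only, where the deviations of same-numbered arrays correlated at 0.15 over genes, so the numbers were not taken to pair the samples. The replicate block gave 7 lower members. Dim wound signals limit the size of the falls of Dsp, Pkp1, Dsg1a, Cdh1 and Epcam, and on wound replicate 2 that of Jup. The values given for Dsc3 are fitted against undetected wound signals, so they are no measured sizes. The planned normexp on mean signals was not run.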
